A study of Nicotiana benthamiana with 9 samples.

Results

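The genes described here are 10 neighbours in the small single-copy region of the plastid genome of Nicotiana benthamiana, a relative of tobacco used for transient expression in leaves. They are ndhF, rpl32, ndhD, psaC, ndhE, ndhG, ndhI, ndhA, ndhH and rps15, taken by name from a table of 105 plastid rows and 1 row for a transgene (106 rows in all). All 10 were found, and all passed the filter on low counts. Total RNA of wild-type leaves was sequenced after depletion of ribosomal RNA in 9 libraries. In 3 of them the leaves expressed P19, a viral suppressor of RNA silencing, alone. In another 3 they expressed P19 with dPPRerpl2, an engineered RNA editing factor of the pentatricopeptide repeat type, from the vector pGWB2 (written PWB2 in the sample labels), and in the last 3 they expressed both from the vector pMDC32. Every group thus carried P19, and no library came from leaves without it. Replicate 1 of each group is labelled 2 days post infiltration (dpi) and replicates 2 and 3 are labelled 3 dpi, while the series text gives 3 dpi for all. The sources used here do not state how many plants or leaves went into a library, and p-values then measure the spread between these libraries.

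Plastid ndh genes encode subunits of the chloroplast NADH dehydrogenase-like (NDH) complex, a thylakoid enzyme that associates with photosystem I and takes part in cyclic electron flow. The products of ndhA, ndhD, ndhE, ndhF and ndhG lie in the membrane arm, and those of ndhH and ndhI in the arm that faces the stroma. The gene psaC, which encodes the photosystem I subunit that holds the terminal iron-sulfur clusters, stands among these ndh genes. In tobacco psaC and ndhD are transcribed together, the RNA is cleaved between them, and editing creates the start codon of ndhD. The genes rps15 and rpl32 encode proteins of the small and the large ribosomal subunit.

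On the plastid sequence of the table, for which no source used here names the build, the genes run from 111789 (the near end of ndhF) to 125211 (the far end of rps15). The 8 genes from ndhD (117242 to 118744) to rps15 (124948 to 125211) follow each other on the minus strand, so the direction of transcription is from rps15 and ndhH towards psaC and ndhD. The gene psaC (118863 to 119108, 246 nt) is 118 nt from ndhD and 260 nt from ndhE (119369 to 119674, 306 nt). Only 1 nt separates ndhA (121413 to 123653) from ndhH (123655 to 124836). The gene ndhF (111789 to 114011) is also on the minus strand, and rpl32 (114799 to 114966) is on the plus strand. All 10 genes lie inside the span listed for the trans-spliced gene rps12 (71935 to 142293, plus strand), and rpl32 shares its strand. Since rpl32 was nevertheless given reads in all 9 libraries, reads that fall in more than 1 row were not all discarded, and reads that bridge neighbours may have been counted for each.

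The counts of a library summed to 32457135 to 44392760, and the 10 genes together took 1.22% to 1.56% of them. A read counted for more than 1 row would enter these sums more than once. The transgene was counted at 1221 to 9675 CPM (edgeR's counts scaled by library size and TMM factor) in the 6 editor libraries and at 0, 11 and 4 reads in P19 replicates 1 to 3, where the 0 allows up to 3 reads by counting error. No nuclear genes were counted, so the leaf label could be checked only by psbA, the photosystem II reaction centre gene. It took 44.0% to 61.1% of counts. P19 replicate 1 stood apart: it had that highest psbA share, a TMM factor of 0.742 against 0.956 to 1.09 in the other 8 libraries, and 71.4% of the 105 plastid rows outside the range of the others. Many of the comparisons of the 10 genes that can be made without it are therefore also given without it. Because the values are shares of plastid counts in whole leaves, less RNA per cell and fewer cells that hold it cannot be told apart.

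Among the 10 genes psaC was the most abundant per length in every library. The levels of the genes differed far more from each other than between libraries, and their order was nearly the same in all 9. Expressed as CPM per kilobase, psaC stood at 24480, 13906 and 16543 in P19 replicates 1 to 3, at 13444, 15751 and 14149 with pGWB2, and at 11869, 15154 and 18062 with pMDC32. P19 replicate 1 was the highest and pMDC32 replicate 1 the lowest, and the ranges of the 3 groups overlapped. The mean level over 9 libraries, 15929 ± 3684 CPM per kilobase (SD, n = 9), was rank 14 of 80 protein-coding rows. At the other end, ndhH, the stromal-arm subunit gene, averaged 410 ± 90.3 CPM per kilobase (SD, n = 9), rank 74 of 80.

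**Figure D1:**
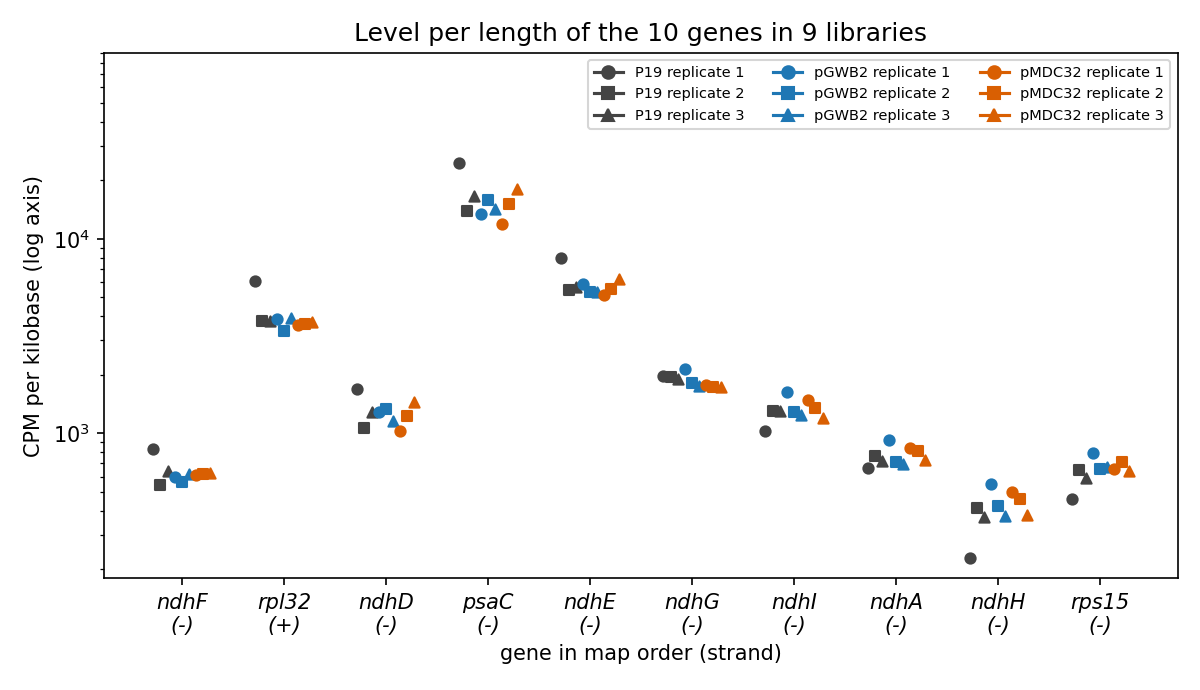
CPM per kilobase (log axis) of the 10 genes in map order, with the strand of each in brackets, and 1 point for each of the 9 libraries. psaC lies above all other genes in all 9 libraries, with ndhE and rpl32 next and ndhH lowest.

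Between these ends the mean levels per kilobase were 5813 for ndhE and 3980 for rpl32. Those of ndhG, ndhI and ndhD were 1867, 1315 and 1278, and those of ndhA, rps15, ndhF were 764, 648 and 627. From psaC down to ndhI each gene exceeded the next in 9 of 9 libraries. The order of ndhI and ndhD was not fixed (ndhI higher in 6 of 9), nor was that of rps15 and ndhF (rps15 higher in 7 of 9). In P19 replicate 1 ndhF (830 CPM per kilobase) also exceeded ndhA (662 CPM per kilobase). The gene ndhA exceeded rps15 in 9 of 9 libraries by 1.18 times on average, although their SDs over libraries, 83.5 and 90.3 CPM per kilobase, are of the size of that gap. The length listed for ndhA covers its whole span, and in tobacco this gene contains an intron, so its level per kilobase is that of exons and intron together.

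The comparison of psaC with its ndh neighbours gave ratios within a narrow range for the genes on either side. Per kilobase, psaC exceeded ndhD, the membrane-arm gene next to it, by 14.4, 13.1 and 12.8 times in P19 replicates 1 to 3, by 10.4, 11.8 and 12.3 times with pGWB2 and by 11.6, 12.4 and 12.5 times with pMDC32. It exceeded ndhE, for a small membrane-arm subunit on its other side, by 3.09, 2.55 and 2.93 times in P19, by 2.30, 2.97 and 2.66 times with pGWB2 and by 2.32, 2.75 and 2.92 times with pMDC32. Replicate 1 had the highest of both ratios in P19 and the lowest in each editor group. In reads not divided by length psaC still had 1.70 to 2.37 times the count of ndhD, which is a longer gene, and 1.85 to 2.48 times that of ndhE. Farther along the strand psaC exceeded ndhG by 6.31 to 12.4 times, ndhI by 7.999 to 23.9 times, ndhA by 14.1 to 37.0 times and ndhH by 23.9 to 107 times per kilobase.

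The mean log2 ratio of psaC to each gene was 3.63 ± 0.13 for ndhD, 1.44 ± 0.16 for ndhE, 3.07 ± 0.31 for ndhG, 3.58 ± 0.47 for ndhI, 4.36 ± 0.42 for ndhA and 5.28 ± 0.64 for ndhH (SD, n = 9). For each of the 6 genes psaC was higher in 9 of 9 libraries (exact sign-flip permutation test, two-sided, p = 0.00391, the smallest possible, and 0.00391 after adjustment over the 6 genes). Short genes collect reads that reach past their ends, which raises their level per kilobase. With P19 replicate 1 left out the log2 ratios were 3.60 for ndhD, 1.41 for ndhE, 2.99 for ndhG, 3.46 for ndhI, 4.25 for ndhA and 5.10 for ndhH. With 300 nt added to every length, a setting chosen after the data were seen, they were 2.74 for ndhD, 1.27 for ndhE, 3.39 for ndhA and 4.46 for ndhH.

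**Figure D2:**
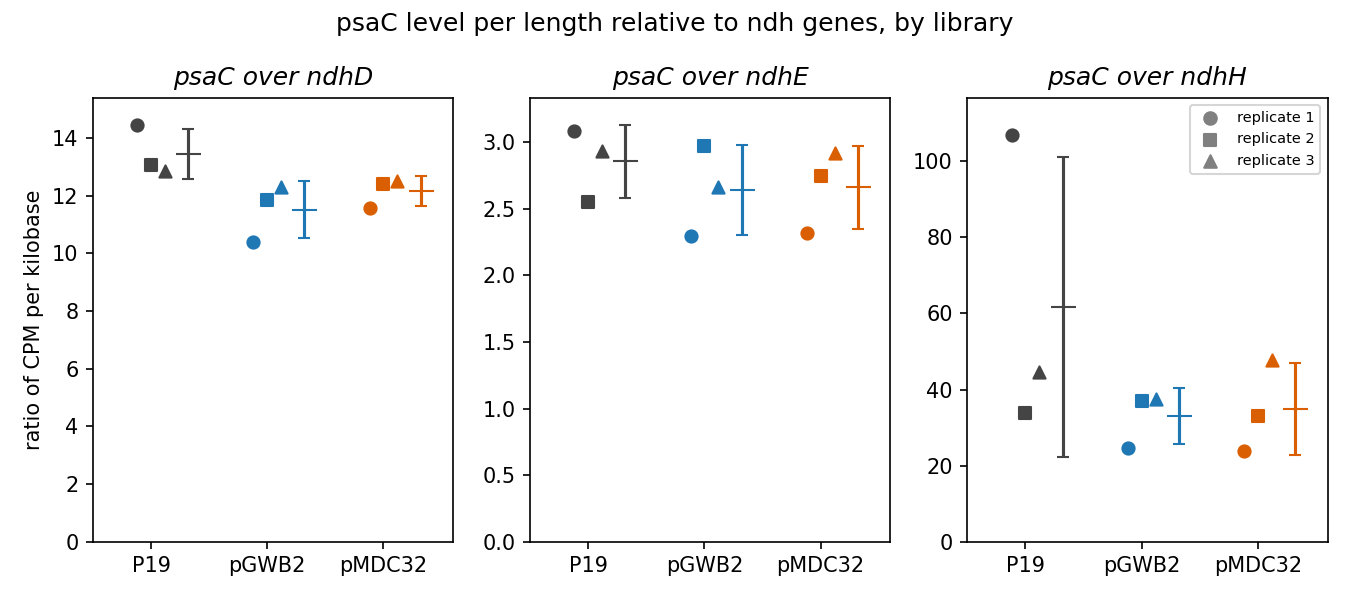
Ratio of psaC to ndhD, ndhE and ndhH in CPM per kilobase, with 1 point per library and the mean ± SD of 3 libraries beside each group. The ratio to ndhH is 107 in P19 replicate 1 and 23.9 to 47.7 in the other 8 libraries.

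Whether the editor altered the balance of psaC and its flanking genes was asked of the log2 ratio of psaC to the mean of ndhD and ndhE. This was 2.74, 2.53 and 2.62 in P19, 2.29, 2.57 and 2.52 with pGWB2, and 2.37, 2.55 and 2.596 with pMDC32. The groups overlapped, and the lowest values belonged to replicate 1 of both editor groups. The difference from P19 was -0.15 for the 6 editor libraries (exact permutation test, two-sided, p = 0.131, n = 6 and 3, where 0.0119 is the smallest possible). It was -0.17 for pGWB2 (exact permutation p = 0.2, n = 3 each) and -0.12 for pMDC32 (exact permutation p = 0.3, n = 3 each), and 3 libraries against 3 cannot give a p below 0.1. After adjustment over these 3 tests each p was 0.3. The size of these differences depended on single libraries. Leaving out P19 replicate 1 gave -0.092 for both vectors, -0.12 for pGWB2 and -0.069 for pMDC32. Leaving out P19 replicate 2 moved them the other way, to -0.20 for both vectors, -0.22 for pGWB2 and -0.17 for pMDC32. With pGWB2 replicate 2 left out the value for pGWB2 was -0.23. Without its own replicate 1 the difference was -0.087 for pGWB2 and -0.058 for pMDC32, and among libraries labelled 3 dpi that for both vectors was -0.017. With all 6 ndh genes of the strand as the neighbours it was -0.35 for both vectors (exact permutation p = 0.179). That value was not computed without P19 replicate 1, which had the highest ratio of psaC to each of these 6 genes.

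None of the 10 genes passed the test for a change with the editor. With both vectors set against P19 the log2 differences ran from -0.31 for psaC to 0.41 for ndhH, 4 genes were above and 6 below P19, and the median was -0.10, against -0.08 over all 105 plastid rows. In edgeR's quasi-likelihood fit, with p adjusted over all rows, 0 of 10 passed, against a background of 0% of plastid rows, and 0 of 10 had an unadjusted p under 0.05, where 15.2% of plastid rows had one. Without P19 replicate 2 edgeR gave 4 of 10 an unadjusted p under 0.05, against 40 of 105 plastid rows, and 0 of 10 passed. DESeq2 called 0 of 10 where it called 2.86% of plastid rows, and gave 2 of 10 an unadjusted p under 0.05 (ndhH and rps15), against 15.2% of plastid rows. The signs followed the map: ndhF, rpl32, ndhD, psaC, ndhE and ndhG were below P19, and ndhI, ndhA, ndhH and rps15 above it. Without P19 replicate 1, 9 of 10 were above P19, and with library totals in place of TMM scaling 8 of 10 were.

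In CPM, psaC was at 6022, 3421 and 4070 in P19, at 3307, 3875 and 3481 with pGWB2 and at 2920, 3728 and 4443 with pMDC32. P19 replicate 1 was above all other libraries, and the remaining P19 libraries lay within the range of the editor libraries. For both vectors edgeR gave psaC a log2 difference of -0.31 with an SE of 0.18 and an adjusted p of 0.372, the 95% interval running from -0.72 to 0.09. Without P19 replicate 1 the difference was 0.0037.

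The transcript of ndhH, at the other end of the minus-strand run, had 271, 487 and 437 CPM in P19, 646, 503 and 445 with pGWB2 and 588, 541 and 448 with pMDC32. P19 replicate 1 was the lowest of the 9, and the group ranges overlapped. For ndhH edgeR gave a log2 difference of 0.41 with an SE of 0.20 and an adjusted p of 0.292, the 95% interval running from -0.03 to 0.85. It was 0.24 without P19 replicate 1. The gene rps15, the ribosomal protein gene beside ndhH, had 122, 171 and 155 CPM in P19, 210, 174 and 178 with pGWB2 and 174, 187 and 169 with pMDC32. All pGWB2 libraries were above all P19 libraries, while 1 pMDC32 library was below P19 replicate 2. The edgeR estimate for rps15 was 0.29 on the log2 scale, with an SE of 0.14, an adjusted p of 0.292 and a 95% interval from -0.02 to 0.59. Leaving out P19 replicate 1 gave 0.21.

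The transcript of rpl32, on the plus strand, had 1022, 633 and 635 CPM in P19, 652, 567 and 659 with pGWB2 and 608, 612 and 630 with pMDC32. All pMDC32 libraries were below all P19 libraries, by a small margin for P19 replicates 2 and 3. The log2 difference for both vectors was -0.30 (SE 0.16, adjusted p = 0.324 by edgeR), and 0.020 without P19 replicate 1. Membrane-arm genes gave -0.19 for ndhE (SE 0.14), -0.15 for ndhF (SE 0.13), -0.12 for ndhD (SE 0.16), -0.09 for ndhG (SE 0.10) and 0.14 for ndhA (SE 0.12), and ndhI of the stromal arm gave 0.18 (SE 0.14). Without P19 replicate 1 these were 0.051 for ndhE, 0.088 for ndhF, 0.13 for ndhD, -0.034 for ndhG, 0.13 for ndhA and 0.12 for ndhI.

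**Figure D3:**
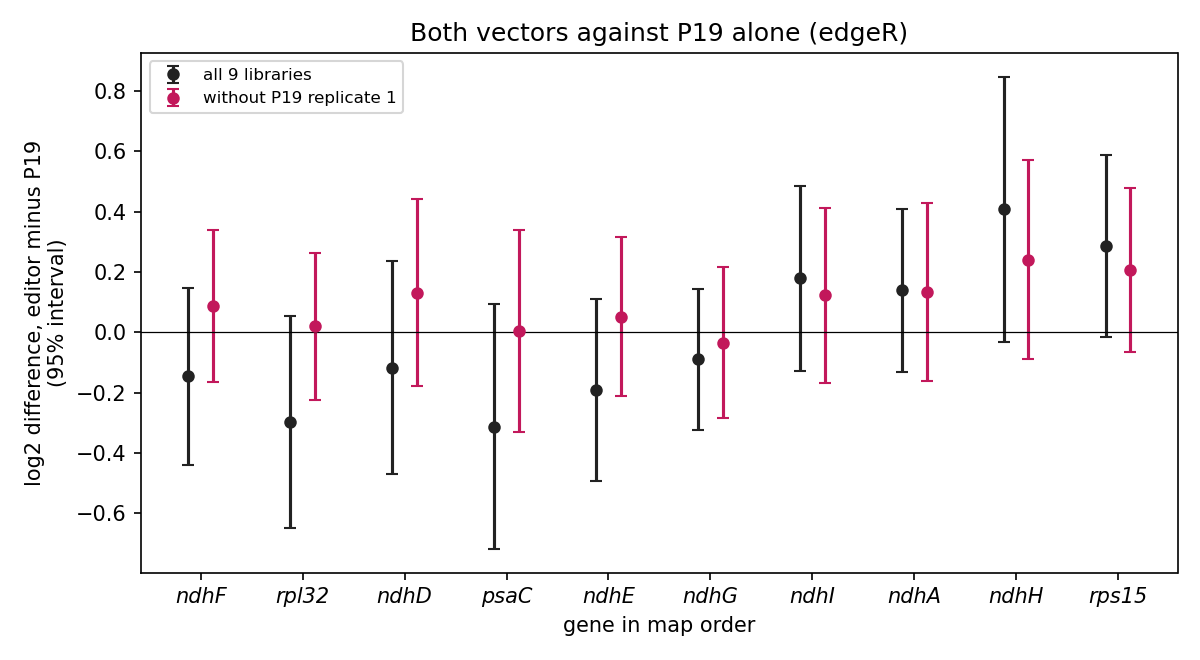
Log2 difference of the 6 editor libraries from P19 by edgeR, with 95% intervals, for the 10 genes in map order, with all 9 libraries (black) and without P19 replicate 1 (pink). All intervals include 0, and the values of ndhF, rpl32, ndhD, psaC and ndhE change sign when that library is left out.

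The comparisons of each vector with P19 share the P19 libraries, and their values are given side by side. The log2 differences for pGWB2 and pMDC32 were -0.34 and -0.28 for psaC, and 0.42 and 0.40 for ndhH. For rps15 they were 0.33 and 0.24, and for rpl32 -0.29 and -0.31. With all libraries 4 of 10 genes were above P19 for each vector, with medians of -0.066 for pGWB2 and -0.12 for pMDC32. Without P19 replicate 1, 9 of 10 were above it for each vector, with medians of 0.064 for pGWB2 and 0.13 for pMDC32. For each vector 0 of 10 genes passed edgeR's test (background 0% of plastid rows) and 0 of 10 had an unadjusted p under 0.05 (background 5.71%). Without P19 replicate 2 that unadjusted count was 3 of 10 for pGWB2 (19 of 105 plastid rows) and 2 of 10 for pMDC32 (25 of 105). DESeq2 called 0 of 10 for either vector, where it called 0.952% of plastid rows for each. Its unadjusted p was under 0.05 for 1 of 10 genes with pGWB2 (rps15; background 12.4%) and for 0 of 10 with pMDC32 (background 11.4%). With pGWB2, rps15 was higher in every library than in every P19 library, which held for 1 of 10 genes and 5.71% of plastid rows. With pMDC32, rpl32 and ndhG were lower in every library, which held for 2 of 10 genes and 9.52% of plastid rows. The same genes were apart from P19 when P19 replicate 1 was left out. These are TMM-scaled values, and for rpl32 the margin was small (630 CPM in pMDC32 replicate 3 and 633 in P19 replicate 2). Without scaling, ndhG had 32719 of 32457135 counts in pMDC32 replicate 3 and 27124 of 34963332 in P19 replicate 1, a higher share with pMDC32.

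The gene ndhG, for a membrane-arm subunit, had close values in P19 (1045, 1040 and 1015 CPM) and pMDC32 (945, 923 and 923 CPM), while pGWB2 had 1131, 968 and 935 CPM. The pMDC32 libraries lay below P19, and the pGWB2 libraries lay on either side. Its log2 difference from P19 was -0.15 for pMDC32 (SE 0.13, adjusted p = 0.635 by edgeR) and -0.03 for pGWB2 (SE 0.13, adjusted p = 0.888 by edgeR). Set directly against each other, the vectors differed by -0.12 to 0.07 on the log2 scale (pMDC32 minus pGWB2) over the 10 genes. By edgeR 0 of 10 passed (background 0% of plastid rows) and 0 of 10 had an unadjusted p under 0.05 (background 0.952%), and DESeq2 called 0 with 0 unadjusted (backgrounds 0% and 0.952%). Of the 10 genes 4 were above 0 and 6 below. Without pGWB2 replicate 1 all 10 were above 0 with a median of 0.092, as they were among libraries labelled 3 dpi with a median of 0.11, and without P19 replicate 1 7 were. The median SE of these differences was 0.17 over the 10 genes.

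In TMM-scaled CPM, P19 replicate 1 departed from the other libraries in opposite directions along the map. It was above each of the other 8 libraries for ndhF, rpl32, ndhD, psaC and ndhE. That held for 5 of 10 genes and 32.4% of plastid rows. P19 replicate 1 was below each of them for ndhI, ndhA, ndhH and rps15, which held for 4 of 10 genes and 39.0% of rows. The gene between these runs, ndhG, was inside the range in these scaled values. Against the mean of P19 replicates 2 and 3 its log2 deviations were 0.50 for ndhF, 0.69 for rpl32, 0.53 for ndhD, 0.69 for psaC and 0.52 for ndhE, then 0.02 for ndhG, and then -0.34 for ndhI, -0.16 for ndhA, -0.77 for ndhH and -0.42 for rps15. The median size of the deviation was 0.51 for the 10 genes and 0.55 over all plastid rows. For psaC, ndhF, ndhD and ndhE the upward departure depended on the scaling, in which P19 replicate 1 had the lowest TMM factor (0.742). As a share of library totals psaC was 0.447% in P19 replicate 1 and 0.485% in pMDC32 replicate 3, the highest of all libraries. For ndhF, ndhD and ndhE P19 replicate 1 had 47895, 66071 and 62980 of 34963332 counts. In pMDC32 replicate 3 they had 49469, 76872 and 67188 of 32457135, which are higher shares. The share of rpl32 was still highest in P19 replicate 1 (26518 counts). That of ndhG was then the lowest (27124 counts), as were those of ndhI, ndhA, ndhH and rps15.

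**Figure D4:**
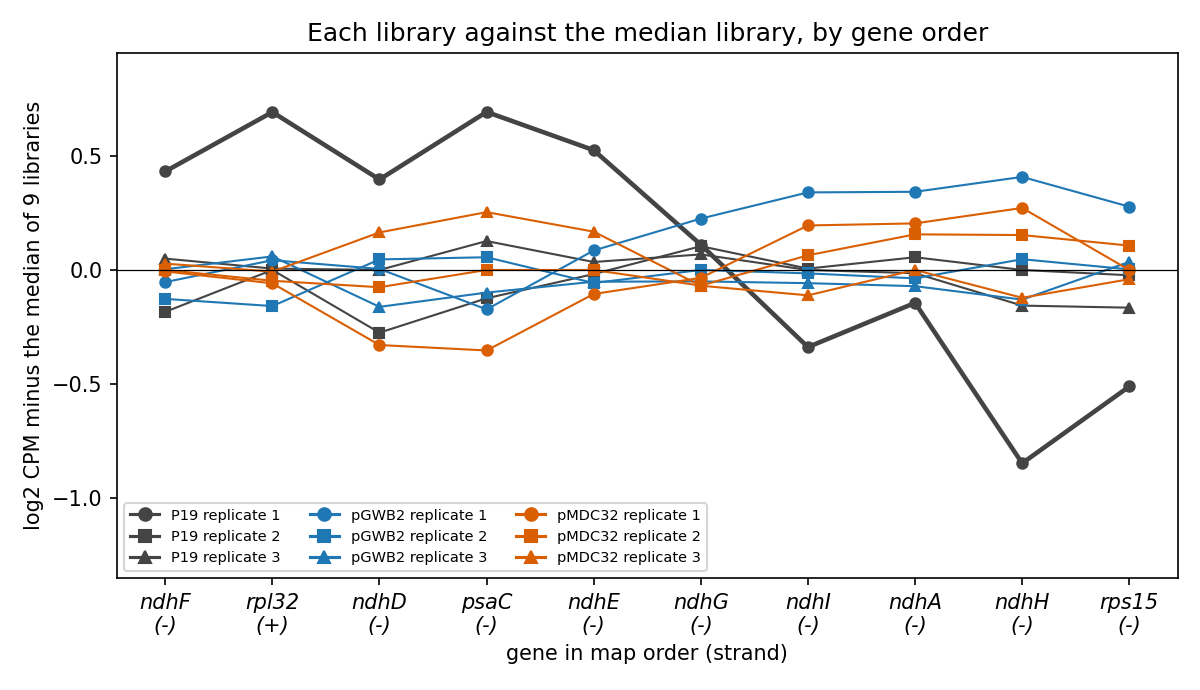
Log2 CPM (TMM-scaled) of each library minus the median of the 9 libraries, for the 10 genes in map order, with 1 line per library. P19 replicate 1 (thick line) is above the others from ndhF to ndhE and below them from ndhI to rps15, and pGWB2 replicate 1 is the highest from ndhG to rps15.

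In replicate 1 of both editor groups psaC, ndhI, ndhA and ndhH deviated with the opposite sign to P19 replicate 1, and the other genes did so in part. Against replicates 2 and 3 of its own group, psaC in replicate 1 deviated by -0.15 with pGWB2 and -0.48 with pMDC32 on the log2 scale. In the same libraries ndhH deviated by 0.45 and 0.26, ndhI by 0.38 and 0.22, and ndhA by 0.40 and 0.13. With pGWB2, 9 of 10 genes were above 0, so that ndhF (0.0086), rpl32 (0.092), ndhD (0.062), ndhE (0.14) and ndhG (0.25) had the sign they had in P19 replicate 1, while rps15 (0.26) had the opposite one. With pMDC32, 4 of 10 were above 0. There ndhF (-0.020), rpl32 (-0.031), ndhD (-0.37) and ndhE (-0.19) had the opposite sign to P19 replicate 1, and ndhG (0.034) and rps15 (-0.033) the same. The ratio of psaC to ndhH per kilobase was accordingly 24.6 in pGWB2 replicate 1 and 23.9 in pMDC32 replicate 1, the lowest of the 9 libraries, against 33.1 to 47.7 in their replicates 2 and 3 and 107 in P19 replicate 1. Labelled day, replicate number and, in part, sequencing lane coincide (lane 8 for P19 replicate 1 and pMDC32 replicates 1 and 2, lane 5 for pMDC32 replicate 3 and lane 4 for the rest, as the column names give it), and their part in this was not tested.

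With the labelled days compared over all groups, 0 of 10 genes passed edgeR's test (background 0% of plastid rows), 0 of 10 had an unadjusted p under 0.05 (background 11.4%), and DESeq2 called 0 with 0 unadjusted (backgrounds 1.90% and 22.9%). The log2 differences, 2 dpi minus 3 dpi, ran from -0.06 to 0.26 with a median of 0.10, and 9 of 10 were above 0. Without P19 replicate 1, 4 genes changed sign and 7 of 10 were above 0. Then 0 of 10 passed edgeR's test, and 3 had an unadjusted p under 0.05 (ndhH 0.38, ndhI 0.32 and ndhA 0.29), against 20 of 105 plastid rows. With library totals in place of TMM scaling 1 of 10 was above 0. Over all plastid rows the median was -0.04.

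The editor effect at the labelled days was compared in a contrast in which P19 replicate 1, the library that stood apart, is the only control library labelled 2 dpi. Its p-values assume that this lone library varies as the other libraries do, which cannot be checked, and 6 of the 10 genes passed the threshold on that assumption. The log2 effect of the editor in libraries labelled 2 dpi, less that in libraries labelled 3 dpi, was below 0 for psaC (-1.003, SE 0.22, adjusted p = 0.00502), ndhD (-0.68, SE 0.24, adjusted p = 0.0437), rpl32 (-0.66, SE 0.19, adjusted p = 0.0140) and ndhE (-0.54, SE 0.20, adjusted p = 0.0457), each p from edgeR and adjusted over all rows. By the same edgeR test it was above 0 for ndhH (1.12, SE 0.22, adjusted p = 0.00502) and ndhI (0.64, SE 0.19, adjusted p = 0.0170). These 4 lower and 2 higher calls compare with 17.1% and 23.8% of plastid rows, 41.0% together. The values for ndhF (-0.50), rps15 (0.54), ndhA (0.43) and ndhG (0.12) did not pass in edgeR. DESeq2 called 8 of 10, with ndhF and rps15 besides these 6, against 47.6% of plastid rows. The size of the effect depended on which rows set the scale. Without rRNA and tRNA rows its median over the 10 genes was -0.46, against -0.19 with all rows. The effect cannot be estimated without P19 replicate 1, so that a difference between days and the state of that library cannot be told apart. The calls of psaC and ndhH were made in each of the 8 fits that left out 1 of the other libraries. In these fits ndhE was called only without P19 replicate 3, and ndhD was not called without P19 replicate 2, pGWB2 replicate 2, pMDC32 replicate 1 or pMDC32 replicate 3. The call of rpl32 was lost without pMDC32 replicate 1, and that of ndhI without pGWB2 replicate 1. With library totals in place of TMM scaling the calls were 1 lower (psaC) and 4 higher (ndhI, ndhA, ndhH and rps15), and rpl32 (-0.29), ndhD (-0.31) and ndhE (-0.17) did not pass.

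The same contrast, with the same lone control library and 41.0% of plastid rows called, gave these counts for the other genes of the complexes. Of ndhB, ndhC, ndhJ and ndhK, 3 of 4 were called higher (ndhK 1.72, ndhJ 1.49 and ndhC 1.33) and 0 lower, and ndhB was at 0.05. Of 6 other photosystem I genes 1 was called higher (ycf4, an assembly factor, 0.77) and 2 lower (psaJ -0.88 and psaI -0.84, small subunits), while the core genes psaA (0.39) and psaB (0.42) did not pass. Of 11 other small-subunit and 8 other large-subunit ribosomal protein genes, 5 and 5 were called higher and 0 lower. Of the genes listed as small single-copy neighbours, ccsA (-0.69), for a cytochrome c assembly protein, and ycf1 (0.21) did not pass, and the trnL row was left aside, since its position is next to ndhB. In the comparison of both vectors with P19 0 genes of these lists passed (background 0%), with medians of -0.27 for the other ndh genes, 0.12 for photosystem I, 0.10 for the small and 0.23 for the large ribosomal subunit.

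Among the 95 plastid rows outside the 10 genes, those most like psaC over the 9 libraries were psbJ, psbE and psbL. These encode small photosystem II subunits. Their root mean square differences of centred log2 CPM from psaC were 0.11 each, against a median of 0.37 over the 95 rows. The nearest 3 of these 95 rows without P19 replicate 1 were again psbJ, psbE and psbL, at 0.11, 0.11 and 0.12 against a median of 0.25. Within the 10 genes the closest pairs were ndhI with ndhA (0.069) and ndhF with ndhE (0.089), and psaC was closest to ndhD (0.12). Over the 8 libraries without P19 replicate 1 the closest pairs were ndhI with ndhA (0.048) and ndhI with ndhH (0.080). There psaC was closest to ndhD (0.098), nearer than to psbJ, psbE or psbL. These values are descriptions with no test.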

How the data were processed

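Raw counts of reads per gene, not normalized, were deposited by the authors in 1 table of 9 libraries. Named in the submitters' processing notes are featureCounts 2.0.1, DESeq2 1.42.0, HISAT2 2.2.1, Trim Galore 0.6.10 and FastQC 0.12.1. Libraries were directional (dUTP), per the labels' protocols. No source used here states the strand setting of the counting, the build, or how reads in several rows were handled. Lengths per the file headers equal the whole span of a row in 106 of 106 rows, introns included. The table holds 105 plastid rows and the transgene, so a shift shared by every plastid transcript cannot be seen.

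Groups were compared with edgeR 4.0.16 (R 4.3.3, limma 3.58.1) by its quasi-likelihood test with TMM normalization and filterByExpr, two-sided, with Benjamini-Hochberg adjustment over all 106 rows and a threshold of 0.05. The 3 groups shared 1 fit, the 6 editor libraries against P19 another, and labelled day used the group as covariate. Ratios within libraries were compared by exact permutation tests. DESeq2 1.42.0, other scalings, left-out rows and libraries, the replicate block and single days or lanes were alternatives. The scripts were tested on simulated data. All 10 genes were named, with other genes from set lists and, of the rows outside the 10, the 3 nearest to psaC in profile. The rows nearest to the mean of the ndh genes are not given, since its members deviated in opposite directions. Members and lists were chosen with earlier results of these data known. Libraries of a group differed by more than their counting error (chi-square over degrees of freedom from 1350 to 21044).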

Additional observations from a re-analysis of the deposited data

Results flagged for a closer look

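In the 6 editor libraries ndhG had 1 library apart: pGWB2 replicate 1, at 1131 CPM, was above the others (923 to 968 CPM), with a gap of 0.783 of the whole range, where Dixon's 95% critical value is 0.625. Chance flags about 5% of such groups, and 11 were tested.

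In edgeR's quasi-likelihood fit, with p adjusted over all rows, the contrast of the editor effect between labelled days passed the threshold for psaC (-1.003), ndhD (-0.678), rpl32 (-0.6592), ndhE (-0.5404), ndhI (0.6383) and ndhH (1.12), each value being the log2 effect in 2 dpi libraries less that in 3 dpi libraries. P19 has 1 library labelled 2 dpi, which also stood apart in 71.4% of plastid rows and is assumed to vary as the others do, so these values cannot be told apart from the state of that library.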

How the results depend on the processing

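The count of genes past the threshold was 0 of 10 under each alternative in all comparisons with P19, between vectors and between days, and 4 to 8 of 10 for the difference of the editor effect between days, where leaving out P19 replicate 1 gives no value. Directions of uncalled genes were less fixed; the cause was not tested. Without a scaling factor, a setting added after seeing the data, the median plastid row moved by 0.161 (pGWB2), 0.193 (pMDC32) and 0.177 (both vectors) against P19, by -0.197 between days and by 0.376 in the day difference. Uncalled genes that changed sign were then, for pGWB2, ndhF (0.024), ndhD (0.10) and ndhG (0.13), for pMDC32 ndhF (0.12), ndhD (0.11), ndhE (0.060) and ndhG (0.044), and for both ndhF (0.073), ndhD (0.11), ndhE (0.027) and ndhG (0.089). With 3 dpi libraries alone they were, for pGWB2, ndhF (0.022), ndhD (0.094), ndhI (-0.023) and ndhA (-0.059), for pMDC32 ndhF (0.14), rpl32 (0.034), ndhD (0.25), psaC (0.20) and ndhE (0.14), and for both ndhF (0.083), rpl32 (0.0029), ndhD (0.17), psaC (0.097) and ndhE (0.053). Lane 4 alone gave 0.0043 for ndhF and 0.097 for ndhD (pGWB2), and without rRNA and tRNA rows the day difference of ndhG was -0.14.

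Leaving out 1 library at a time gave log2 ranges that cross 0 for pGWB2 in ndhF (-0.32 to 0.032), rpl32 (-0.42 to 0.0093), ndhD (-0.26 to 0.12), ndhE (-0.32 to 0.012), ndhG (-0.13 to 0.023) and ndhA (-0.029 to 0.20). For pMDC32 they were ndhF (-0.21 to 0.14), rpl32 (-0.42 to 0.030), ndhD (-0.25 to 0.14), psaC (-0.42 to 0.055) and ndhE (-0.25 to 0.089). For both vectors they were ndhF (-0.26 to 0.088), rpl32 (-0.41 to 0.020), ndhD (-0.25 to 0.13), psaC (-0.47 to 0.0037) and ndhE (-0.28 to 0.051), and in the day difference ndhG (-0.042 to 0.25).

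Same-numbered libraries correlated in their deviations at 0.719 (replicate 1 of both vectors) but at 0.0881 and -0.197 between replicate 1 of P19 and of the vectors. For replicates 2 and 3 the correlations ran from -0.525 to 0.378. Differently numbered libraries of different groups correlated at -0.61 to 0.673. These mixed values do not settle whether the numbers pair the libraries. With the replicate block 0 of 10 genes passed for each vector and for both, and the ratio of psaC to ndhD and ndhE differed from P19 by -0.148. For psaC against the 6 ndh genes each alternative gave the smallest p that its number of libraries allows, so the p cannot show how stable the excess is. Its size moved most with 300 nt added to each length, from 3.63 to 2.74 for ndhD and from 4.36 to 3.39 for ndhA on the log2 scale.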

Other observations

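P19 replicate 2 was outside the range of the other 8 libraries for 51 of 105 plastid rows but for 1 of the 10 genes described here. For pGWB2 replicate 1 it was 21 of 105 plastid rows and 5 of the 10. For pMDC32 replicate 1 it was 19 of 105 and 3 of 10. The share of the 10 genes' counts that fell on psaC was 34.8% in P19 replicate 1, 23.8% in pGWB2 replicate 1 and 23.7% in pMDC32 replicate 1. It was 27.2% to 31.0% in the other 6 libraries. The ratio of ndhE to ndhD per kilobase was 3.99 to 5.12 in all 9 libraries, with 4.68 in P19 replicate 1.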
